A study of Mus musculus with 8 samples.

Results

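Imprinted genes were followed in a mouse thymic epithelial cell line that carries a point mutation in Gtf2i. The 38 genes were taken by name as known imprinted genes of the mouse, with no threshold on their values, and were grouped into 20 imprinted domains. Probes were assigned to a gene through the transcript accession in the array files, and a probe of H19 through the gene name listed there. This gave 70 probes for the 38 genes, out of 56605 probes for 45616 genes and unnamed transcripts on the array. Of the 38 genes, 26 could be tested.

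An imprinted gene is expressed mainly or only from the chromosome copy inherited from one parent. For many imprinted genes, though not for all, the choice is set by DNA methylation that is laid down in the egg or sperm at an imprinting control region. It is kept in body cells with the help of the zinc finger protein ZFP57 and the maintenance methyltransferase DNMT1. Imprinted genes lie in clusters in which one control region often governs several genes, and many of them act on fetal and placental growth, with Igf2 and its clearance receptor Igf2r as the classic opposing pair. The arrays measured total RNA of each gene and cannot tell from which parental copy it came.

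RNA of TEC71, an immortalized line labelled as medullary thymic epithelium, was hybridized to 8 single-colour Agilent arrays on 1 slide. Knock-in clone 1 was on 3 arrays and knock-in clone 3 on 2 arrays, both labelled as clones with the T1211A change in Gtf2i, the gene of the transcription factor TFII-I. The control on the other 3 arrays was TEC71 transfected with Cas9 nickase and one guide RNA. Each knock-in group is a single clone, so clone and genotype cannot be told apart within a group, and the labels do not say whether arrays of one group came from separate cultures, so p-values measure the spread between these arrays. All groups were grown in the same medium with serum.

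Levels are log2 processed signals after subtraction of each array's own log2 75th percentile, and levels of different probes are not compared with each other. A gene is described by its brightest probe over all arrays, here called the main probe. The share of probes well above background was 55.3% to 59.3%, and no spot was saturated. All 7 epithelial markers, keratins Krt5, Krt8, Krt14 and Krt18 among them, were well above background on all 8 arrays. Krt5 and Epcam were lower in both clones (log2 changes of -1.32 and -1.13, and of -1.10 and -1.01), while Krt19 was higher by 0.58 and 1.08. The summed signal of these markers was 319 to 367 times the 75th percentile in clone 1, 344 to 382 times in clone 3 and 366 to 479 times in the control. Of the medullary markers, Aire was above background on 3 arrays, Fezf2 and Ccl21a on none, and Cd80, Tnfrsf11a, Cldn3, Cldn4 and Relb on all. Cd80 and Relb were lower in both clones (log2 changes of -2.31 and -2.86, and of -0.84 and -1.03), while Cldn4 was higher by 1.52 and 1.17. These epithelial and medullary calls were also made in a fit with the array row, the row of the slide on which an array lay, as a block. Of the cortical markers, Prss16, Ctsl, Ly75 and Foxn1 were above background on all arrays and Psmb11 and Cxcl12 on none, and Prss16 alone was called, higher by 0.71 and 0.57, a call lost with the block. Among the fibroblast markers Pdgfra and Col1a2 were above background on all arrays, and Pdgfrb, Dcn, Lum and Thy1 on none. Pdgfra was lower in both clones, at -1.30 and -1.83 log2 (adjusted p 0.000205 and 7.1e-05), and Col1a2 was not called. The summed signal of the 8 fibroblast markers was 0.466 to 0.625 times the 75th percentile in clone 1, 0.481 to 0.557 times in clone 3 and 0.962 to 1.21 times in the control, and the part of these differences in the results below was not tested. Gtf2i itself read 3.97, 3.88 and 4.01 in clone 1, 3.80 and 3.85 in clone 3, and 4.40, 4.46 and 4.37 in the control, lower in both clones by 0.46 ± 0.10 and 0.59 ± 0.11 log2 (SE, adjusted p 0.00754 and 0.00421), a call that was lost with the array row as a block (adjusted p 0.0789 and 0.125).

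Among the 26 imprinted genes tested, 11 were higher and 2 were lower in both knock-in clones than in the control. The 11 were Igf2, Sfmbt2, Mest, Zrsr1, Snrpn, Trappc9, Plagl1, Igf2r, Phlda2, Copg2 and Mcts2, and the 2 were Slc22a18 and Asb4. In clone 1 the count was 12 higher and 2 lower, where 31.1% of all 25353 tested genes and transcripts were called, 14.7% higher and 16.5% lower, and 36.2% of the 14719 with a gene symbol. In clone 3 it was 11 higher and 2 lower, where 30.2% of all were called, 13.3% higher and 17.0% lower, and 32.8% of those with a symbol. Over both clones with one sign, 13 of 26 stood beside 23.5% of all tested, 11.3% higher and 12.2% lower. Among genes with a symbol, where H19 is not counted because its main probe is listed by name, that share was 27.5%, with 15.4% higher and 12.1% lower. The median log2 change of the 26 genes was 0.42 in clone 1 and 0.40 in clone 3, and that of all tested was -0.05 and -0.04, or 0.00 and 0.02 for genes with a symbol. A gene was called where limma gave an adjusted p under 0.05 over all tested, and both clones were set against the same 3 control arrays, so that an error in the controls moves both. Knock-in and control arrays did not overlap for 17 of the 26 genes, which was the case for 38.4% of all tested and 44.6% of those with a symbol. The 17 include Igf2, Sfmbt2 and Asb4, which were above background only in the knock-in or only in the control arrays. Such genes were tested because of that difference, so their separation was largely set by the choice of genes. Among the 21 imprinted genes above background on all arrays, 14 did not overlap. No share without overlap was computed over all genes with that property.

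**Figure D1:**
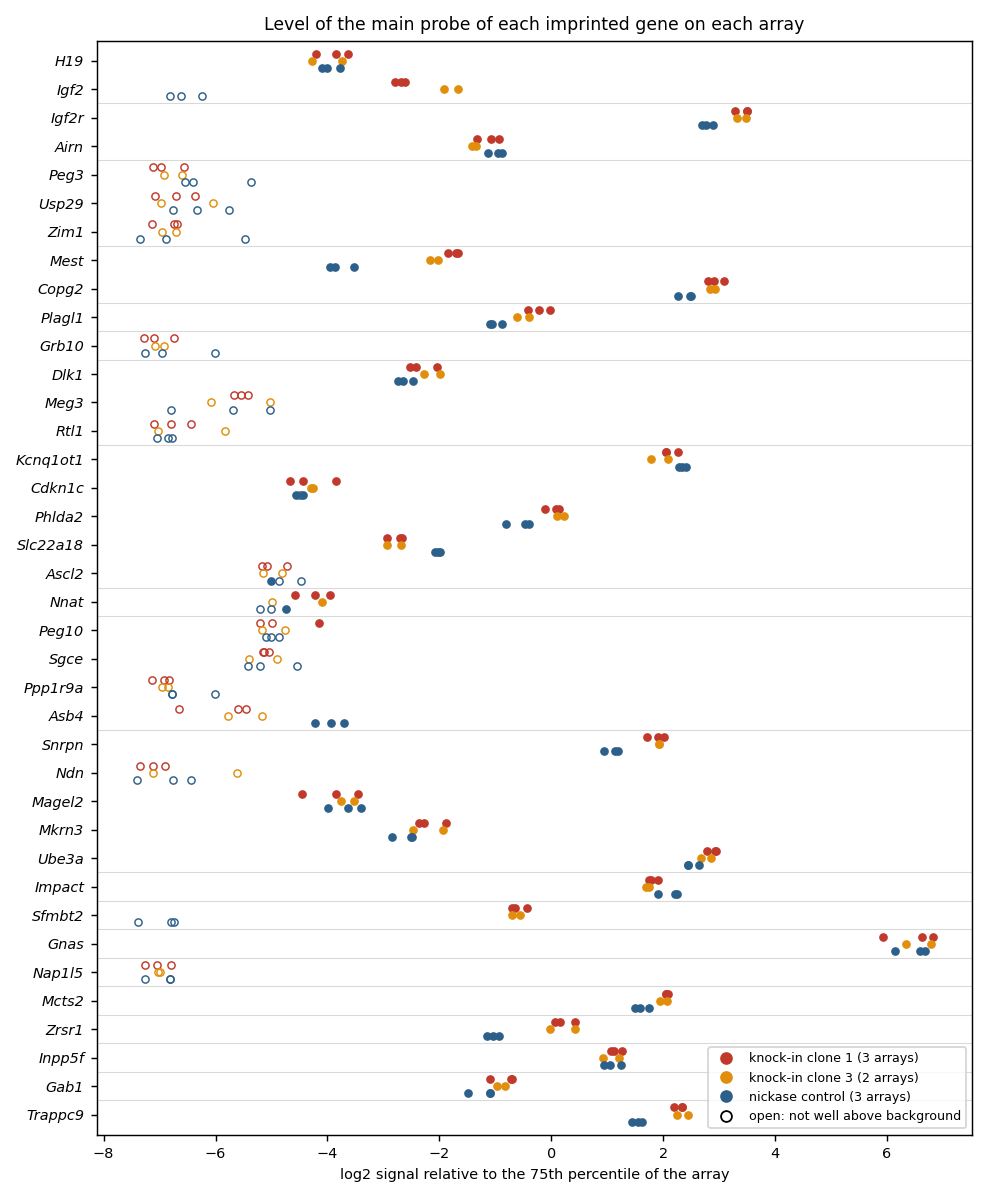
Level of the main probe of each of the 38 imprinted genes on each array, in log2 after scaling to each array's 75th percentile, with grey lines between domains. Open points are not well above background. Igf2 and Sfmbt2 are open in the control and filled in both knock-in clones, and Asb4 is the other way round.

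Of the 38 genes, 23 are known in mouse as paternally expressed and 15 as maternally expressed, at least in some tissues. Of the paternally expressed genes 16 were tested, of which 7 were higher and 0 were lower in both clones by limma on the main probes. At an unadjusted p under 0.05, 1 was lower in clone 1 and 3 were lower in clone 3. No share over all tested and no count of maternally expressed genes was computed at that threshold. With the mean of all probes, the paternally expressed Plagl1 and Kcnq1ot1 were called lower in both clones, Plagl1 at -2.92 and -3.15 log2. Of the maternally expressed genes 10 were tested, of which 4 were higher and 2 were lower in both clones. The shares to set beside both classes are the 11.3% higher and 12.2% lower of all tested, or 15.4% and 12.1% of genes with a symbol. The median log2 changes were 0.45 and 0.43 for the paternally expressed and 0.27 and 0.24 for the maternally expressed genes in clone 1 and clone 3. Whether the 2 classes differ was not tested.

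The promoter windows of 6 of these genes are shown to let the ZFP57 hexamer be seen in its surroundings. They were picked after the matches were known, so that they overstate how often the hexamer occurs. Of the 10 genes with a window that were higher in both clones they cover 5, of which Sfmbt2 lacks the hexamer, and leave out Copg2 and Snrpn, which have it, and Igf2r, Phlda2 and Zrsr1, which do not. Nap1l5 was at background on every array. The window of Igf2 is 1 of 4 and the only one of them with the hexamer, that of Mest is 1 of 3, of which 2 have it, and that of Sfmbt2 is 1 of 2. They are RefSeq windows of GRCm38.p6 of 300 bases each that end shortly after a transcript start, in lower case, with each TGCCGC or its reverse complement in capitals. TGCCGC is the hexamer that ZFP57 recognises when it is methylated. The Igf2 window is chr7:142661222-142661521 on the minus strand, the Mest window chr6:30737800-30738099 on the plus strand, and the Plagl1 window chr10:13090582-13090881 on the plus strand. The Mcts2 window is chr2:152686898-152687197 on the plus strand, the Sfmbt2 window chr2:10372186-10372485 on the plus strand, and the Nap1l5 window chr6:58907077-58907376 on the minus strand.
Igf2: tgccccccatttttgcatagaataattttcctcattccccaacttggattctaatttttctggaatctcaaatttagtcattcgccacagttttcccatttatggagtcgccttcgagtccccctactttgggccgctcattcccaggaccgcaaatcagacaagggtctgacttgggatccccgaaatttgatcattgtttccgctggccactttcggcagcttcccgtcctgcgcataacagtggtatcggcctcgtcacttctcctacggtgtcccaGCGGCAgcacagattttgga
Mest: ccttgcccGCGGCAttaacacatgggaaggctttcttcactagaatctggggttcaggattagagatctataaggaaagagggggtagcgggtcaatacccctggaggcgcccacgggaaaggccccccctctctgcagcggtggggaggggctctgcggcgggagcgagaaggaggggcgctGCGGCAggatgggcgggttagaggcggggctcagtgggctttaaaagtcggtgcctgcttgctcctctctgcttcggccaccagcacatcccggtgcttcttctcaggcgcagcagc
Plagl1: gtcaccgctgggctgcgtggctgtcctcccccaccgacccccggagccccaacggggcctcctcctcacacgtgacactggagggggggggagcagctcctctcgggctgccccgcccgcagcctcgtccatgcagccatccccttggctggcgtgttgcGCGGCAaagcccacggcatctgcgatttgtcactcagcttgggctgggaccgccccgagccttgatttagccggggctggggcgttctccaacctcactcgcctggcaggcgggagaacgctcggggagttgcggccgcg
Mcts2: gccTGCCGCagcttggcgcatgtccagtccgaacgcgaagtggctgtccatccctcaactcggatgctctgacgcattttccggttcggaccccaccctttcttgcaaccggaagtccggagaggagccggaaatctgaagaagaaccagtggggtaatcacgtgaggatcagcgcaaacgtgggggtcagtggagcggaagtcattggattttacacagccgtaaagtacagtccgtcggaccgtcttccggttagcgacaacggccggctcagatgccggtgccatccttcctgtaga
Sfmbt2: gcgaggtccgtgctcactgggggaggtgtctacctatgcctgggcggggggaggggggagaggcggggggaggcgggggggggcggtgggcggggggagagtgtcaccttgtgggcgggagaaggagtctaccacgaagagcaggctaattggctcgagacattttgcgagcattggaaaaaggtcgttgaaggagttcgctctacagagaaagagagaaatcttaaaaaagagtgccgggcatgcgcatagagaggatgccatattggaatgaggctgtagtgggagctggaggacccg
Nap1l5: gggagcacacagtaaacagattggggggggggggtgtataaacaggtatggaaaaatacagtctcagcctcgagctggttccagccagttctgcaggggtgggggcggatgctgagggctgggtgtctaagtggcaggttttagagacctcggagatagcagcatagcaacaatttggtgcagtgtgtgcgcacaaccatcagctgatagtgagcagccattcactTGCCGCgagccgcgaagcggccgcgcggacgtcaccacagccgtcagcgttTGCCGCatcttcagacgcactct
The windows shown of Mest and Nap1l5 hold the hexamer at 2 places each, Igf2, Plagl1 and Mcts2 at 1 place each, and the Sfmbt2 window does not hold these letters. The table has 48 windows for 31 of the 38 genes, and 12 of the 48 (25.0%) hold the hexamer on either strand, against 11.6% of all 32851 windows. Windows of one gene can overlap and are counted singly. The 2 windows of Mest with the hexamer overlap almost wholly and hold it at the same 2 places. The member windows also had a median of 15 CpG and a GC content of 59.7%, against 7 CpG and 52.7% in all windows. By gene, the hexamer was found for 6 of the 10 genes with a window that were higher in both clones, for 0 of the 2 that were lower, for 1 of the 9 that were not called, and for 4 of the 9 that were not tested. No share by gene was computed over all 27025 genes with a window. A gene with several windows, such as Igf2 with 4 and Mest with 3, has more places for a match. Whether the hexamer goes with the direction of change was not tested. The YY1 core GCCATNTT was in 8.33% of the member windows, among them that of Sfmbt2, and in 6.05% of all. For GGATTA and CACGTG, letters searched for TFII-I, the shares were 10.4% and 8.33% of the member windows, and 7.06% and 7.15% of all. Each motif was searched on both strands and counted apart from the others. A match is a description of the letters and not a binding site.

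In the H19 and Igf2 domain on chromosome 7, Igf2 was higher in both clones by its main probe, and its probes disagree on the size. Igf2 encodes a fetal growth factor that signals through the IGF1 and insulin receptors. Its main probe read -2.69, -2.61 and -2.79 in clone 1, -1.92 and -1.66 in clone 3, and -6.62, -6.24 and -6.81 in the control. This probe was well above background on all 5 knock-in arrays and on none of the 3 control arrays. The signal was at least 4.86-fold higher in clone 1 and at least 9.12-fold higher in clone 3 (adjusted p 9.08e-07 and 6.87e-07). Such a lower limit sets each array of the dim group to no less than the lowest signal called well above background on that array, and it is approximate because this floor differed between arrays, from -5.448 to -4.564. It also holds for the main processing alone. Under the alternatives given at the end, the fitted change of Igf2 ran from 0.77 to 4.01 log2 in clone 1. In clone 3 the change ran from 1.27 to 4.92. The second probe of Igf2 has the same accession, was well above background on all knock-in arrays and on 2 of the 3 control arrays, and read -4.20, -3.97 and -4.48 in clone 1, -3.68 and -3.63 in clone 3, and -4.79, -4.23 and -4.57 in the control. It was called in clone 3 alone, with a change of 0.87 ± 0.20 log2 (SE, adjusted p 0.0102 over all probes), against 0.32 ± 0.18 in clone 1 (adjusted p 0.212), and the clone 3 call was lost with the array row as a block (adjusted p 0.167). H19, the maternally expressed noncoding RNA that shares an enhancer with Igf2, was not called. A probe that the files list under the name H19 read between -4.27 and -3.63 in the clones and between -4.10 and -3.77 in the control, and the probe with the RefSeq accession of H19 was at background on all arrays.

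The Igf2r and Airn domain on chromosome 17 holds the receptor that removes IGF2 from the cell surface and also sorts lysosomal enzymes. Igf2r read 3.50, 3.28 and 3.49 in clone 1, 3.49 and 3.32 in clone 3, and 2.76, 2.69 and 2.88 in the control. Every knock-in array lay above every control array, with a change of 0.64 ± 0.11 log2 in clone 1 and 0.62 ± 0.13 in clone 3 (SE, adjusted p 0.00331 and 0.00716). Airn, the paternally expressed noncoding RNA that overlaps Igf2r and silences it in cis, was not called at -0.12 ± 0.13 and -0.40 ± 0.15 log2 (SE, adjusted p 0.537 and 0.0745).

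Both genes of the Mest domain on chromosome 6 were higher. Mest, a paternally expressed gene for a protein of the alpha/beta hydrolase fold, read -1.71, -1.84 and -1.67 in clone 1, -2.02 and -2.17 in clone 3, and -3.96, -3.53 and -3.86 in the control. The groups were far apart, with 4.12-fold in clone 1 and 3.22-fold in clone 3 (log2 changes of 2.04 ± 0.14 and 1.69 ± 0.15, SE, adjusted p 1.34e-05 and 9.72e-05). Under the alternatives the change of Mest ran from 0.901 to 2.167 log2 in clone 1 and from 0.732 to 1.815 in clone 3. Its second probe was not called at 0.94 ± 0.33 and 0.96 ± 0.37 log2 (SE, adjusted p 0.0595 and 0.0832), with 1 of the 3 control arrays above background. Copg2, which encodes a coat protein of COPI vesicles and lies next to Mest on the other strand, read 3.09, 2.80 and 2.90 in clone 1, 2.84 and 2.92 in clone 3, and 2.50, 2.47 and 2.27 in the control. This was a difference of 0.52 ± 0.12 and 0.47 ± 0.13 log2 without overlap of the arrays (SE, adjusted p 0.0116 and 0.0305). The other probe of Copg2 was not called, at 0.04 ± 0.11 and -0.02 ± 0.13 log2 (SE).

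Plagl1 on chromosome 10, a paternally expressed gene for a zinc finger transcription factor also called Zac1, gave opposite answers with its 2 probes. The main probe read -0.21, -0.03 and -0.42 in clone 1, -0.39 and -0.60 in clone 3, and -0.88, -1.06 and -1.09 in the control, higher by 0.79 ± 0.14 and 0.51 ± 0.15 log2 (SE, adjusted p 0.0027 and 0.0342). The second probe, which has the same accession, read -6.47, -6.72 and -7.05 in clone 1, -6.96 and -6.92 in clone 3, and -0.26, -0.18 and 0.08 in the control. It was well above background on all 3 control arrays and on none of the 5 knock-in arrays, which makes it at least 28.2-fold lower in clone 1 and at least 27.0-fold lower in clone 3 (adjusted p 7.23e-08 and 1.85e-07 over all probes). When the probes of each gene were averaged, the change of Plagl1 became -2.92 log2 in clone 1 and -3.15 in clone 3. The call of Plagl1 as higher therefore holds for 1 of its 2 probes.

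Of the 38 genes, 22 had several probes, and 32 probes were not the main one. With every probe fitted as its own feature, 16 of these 32 were tested, 4 were higher and 3 were lower in both clones, where 24.5% of all probes were called with one sign. The 4 belonged to Snrpn, Sfmbt2 and Ube3a, and the 3 to Plagl1 and Kcnq1ot1. With the array row as a block, 3 were higher and 1 was lower in both clones, those of Snrpn, Sfmbt2 and Plagl1, where the share of all probes was 8.14%.

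**Figure D2:**
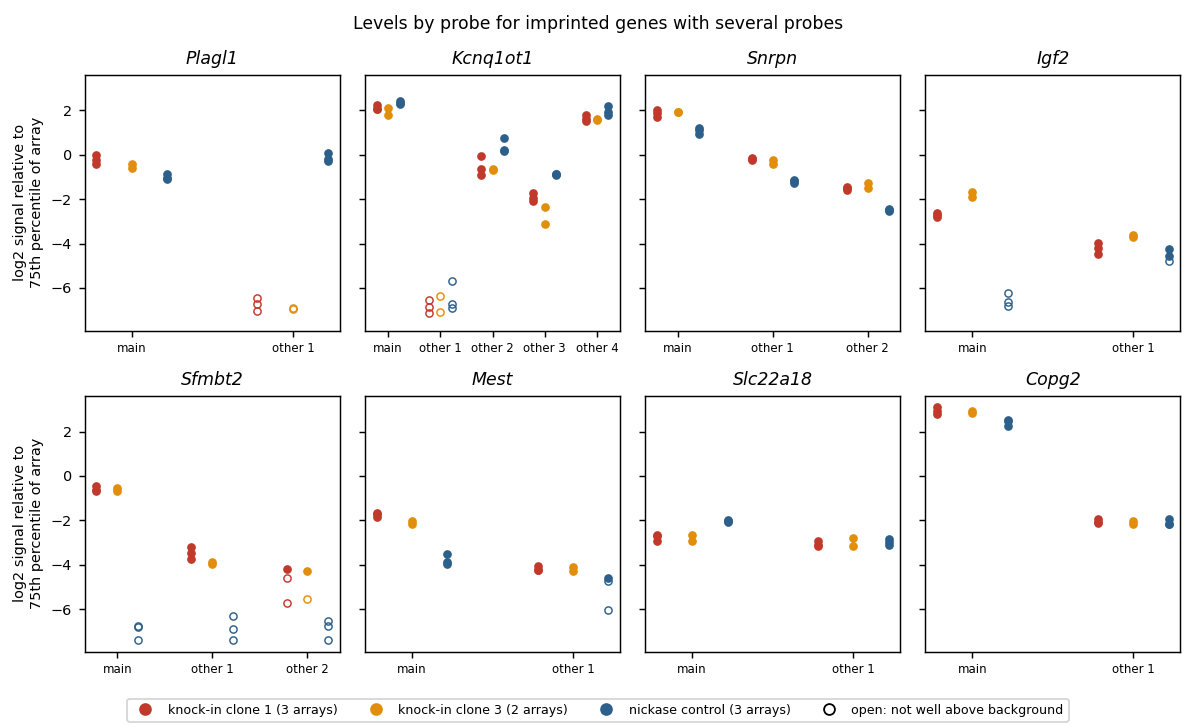
Level of every probe on each array, in log2 after scaling to each array's 75th percentile, for 8 imprinted genes with several probes. The second probe of Plagl1 is open in both knock-in clones and near 0 in the control, while its main probe is higher in the clones, and all 3 probes of Snrpn are higher in the clones.

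The Kcnq1ot1 domain on chromosome 7 moved in both directions. Phlda2, a maternally expressed gene whose product restrains placental growth, read -0.11, 0.09 and 0.14 in clone 1, 0.23 and 0.10 in clone 3, and -0.40, -0.80 and -0.48 in the control. The arrays did not overlap, with 0.60 ± 0.14 and 0.72 ± 0.15 log2 (SE, adjusted p 0.0112 and 0.00849). Slc22a18, a maternally expressed gene for a transporter of the organic cation family, read -2.93, -2.70 and -2.66 in clone 1, -2.68 and -2.93 in clone 3, and -2.00, -2.08 and -2.03 in the control. It was lower on every knock-in array, by 0.73 ± 0.12 and 0.77 ± 0.13 log2 (SE, adjusted p 0.00215 and 0.0033), while its second probe gave -0.09 ± 0.14 and 0.00 ± 0.16. The growth inhibitor gene Cdkn1c was not called, at 0.17 ± 0.20 and 0.22 ± 0.22 log2 (SE), and Ascl2, a placental transcription factor, was above background on 1 control array.

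Kcnq1ot1 itself is the long noncoding RNA, made from the paternal copy, that silences its maternally expressed neighbours in cis. Its main probe was not called, at -0.23 ± 0.12 and -0.41 ± 0.14 log2 (SE, adjusted p 0.203 and 0.0512), although the arrays did not overlap. Another probe read -1.70, -1.96 and -2.09 in clone 1, -2.35 and -3.12 in clone 3, and -0.86, -0.86 and -0.90 in the control. This probe was lower in both clones by 1.04 ± 0.19 and 1.86 ± 0.22 log2 (SE, adjusted p 0.0036 and 0.00036 over all probes). A further probe was lower by 0.92 ± 0.23 and 1.06 ± 0.26 (SE, adjusted p 0.0152 and 0.014), one more was not called at -0.31 ± 0.14 and -0.37 ± 0.15, and the last was at background throughout. All 4 probes above background had negative changes. With every probe fitted as its own feature, 2 of them were lower in both clones, and the main probe was called in clone 3 alone (adjusted p 0.0493). With the array row as a block, the probe that read near -0.87 in the control was called in clone 3 alone (adjusted p 0.0734 in clone 1 and 0.0401 in clone 3), and the further probe in neither (adjusted p 0.265 and 0.563).

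In the Snrpn domain on chromosome 7, which corresponds to the human Prader-Willi and Angelman region, Snrpn was higher by all of its probes. Snrpn encodes SmN, a protein of the spliceosome, from the paternal copy. The main probe read 1.90, 1.71 and 2.01 in clone 1, 1.92 and 1.93 in clone 3, and 0.95, 1.19 and 1.13 in the control. The groups did not overlap, and the change was 0.78 ± 0.12 and 0.83 ± 0.13 log2 (SE, adjusted p 0.00146 and 0.00227). Its other probes gave 1.00 ± 0.10 and 0.86 ± 0.11 log2, and 0.97 ± 0.11 and 1.08 ± 0.12 log2 (SE). Ube3a, a ubiquitin ligase gene that is maternally expressed in neurons, was called in clone 1 alone by its main probe, at 0.37 ± 0.11 log2 against 0.26 ± 0.12 in clone 3 (SE, adjusted p 0.0335 and 0.151), and its second probe was higher in both by 0.60 ± 0.11 and 0.49 ± 0.12 (SE, adjusted p 0.00382 and 0.0182). The clone 3 call of that second probe was lost with the array row as a block (adjusted p 0.0769). Magel2 and Mkrn3, a MAGE family gene and a gene for a RING finger protein, were above background on all arrays and not called, and Ndn, another MAGE family gene, was at background on all.

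Asb4 was the other gene that was lower in both clones. It encodes an ankyrin repeat protein of ubiquitin ligase complexes and lies in the Peg10 and Sgce domain on chromosome 6. Asb4 read -5.46, -6.65 and -5.60 in clone 1, -5.79 and -5.18 in clone 3, and -3.70, -3.94 and -4.23 in the control. It was above background on the 3 control arrays and on no knock-in array, at least 1.98-fold lower in clone 1 and at least 1.90-fold lower in clone 3 (adjusted p 0.00212 and 0.0126). With normexp background correction the change was -0.25 and -0.20 log2 and was not called. The second probe of Asb4 was at background on all arrays. Sgce, for epsilon-sarcoglycan, and Ppp1r9a, for neurabin, were above background on none, and Peg10, a retrotransposon-derived gene needed in the placenta, on 1 array of clone 1.

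Sfmbt2 on chromosome 2, a paternally expressed Polycomb gene needed in the placenta, was measured in both clones and not in the control. It read -0.70, -0.65 and -0.44 in clone 1, -0.55 and -0.70 in clone 3, and -6.80, -7.39 and -6.74 in the control. None of the control arrays was above background, and the signal was at least 20.9-fold higher in clone 1 and at least 20.4-fold higher in clone 3 (adjusted p 1.44e-07 and 3.64e-07). These limits hold for the main processing alone. Under the alternatives the fitted change of Sfmbt2 ran from 2.16 to 6.5 log2 in clone 1 and from 2.02 to 6.47 in clone 3. A second probe gave at least 2.84-fold and at least 2.07-fold. The remaining one of the 3 probes of Sfmbt2 was not called in both clones.

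The remaining genes called in both clones are single-gene domains. Zrsr1 on chromosome 11, Mcts2 on chromosome 2 and Nap1l5 on chromosome 6 are retrogenes that lie inside introns of Commd1, H13 and Herc3, and in mouse they are expressed from the paternal copy. Zrsr1, for an RNA-binding protein related to a splicing factor subunit, read 0.07, 0.15 and 0.42 in clone 1, 0.42 and -0.03 in clone 3, and -1.04, -0.93 and -1.15 in the control. All knock-in arrays were higher, by 1.25 ± 0.15 and 1.24 ± 0.17 log2 (SE, adjusted p 0.00045 and 0.00104), while its host Commd1 was not called at -0.12 ± 0.14 and -0.27 ± 0.15. Mcts2, a copy of a gene for a translation re-initiation factor, read 2.06, 2.05 and 2.08 in clone 1, 1.93 and 2.06 in clone 3, and 1.58, 1.50 and 1.74 in the control. This small difference of 0.46 ± 0.10 and 0.39 ± 0.12 log2 was called without overlap (SE, adjusted p 0.0117 and 0.0374), and its host H13 stood at 0.00 ± 0.13 and 0.01 ± 0.15. Nap1l5, a relative of nucleosome assembly proteins, was at background on all arrays, while its host Herc3 was higher by 2.33 ± 0.11 and 2.22 ± 0.12 log2 (SE, adjusted p 1.83e-06 and 5.8e-06).

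Trappc9 on chromosome 15, which encodes a subunit of the TRAPP vesicle tethering complex and is biased to the maternal copy in mouse brain, read 2.34, 2.19 and 2.33 in clone 1, 2.25 and 2.44 in clone 3, and 1.45, 1.62 and 1.54 in the control. Every knock-in array was higher, by 0.75 ± 0.11 and 0.81 ± 0.12 log2 (SE, adjusted p 0.00116 and 0.00164). Its second probe was called in clone 1 alone, at 0.57 ± 0.19 against 0.50 ± 0.21 log2 (SE, adjusted p 0.049 and 0.111). Peg13, a paternally expressed noncoding RNA inside Trappc9, was also higher, by 2.18 ± 0.12 and 1.85 ± 0.13 log2 (SE, adjusted p 3.72e-06 and 2.29e-05).

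**Figure D3:**
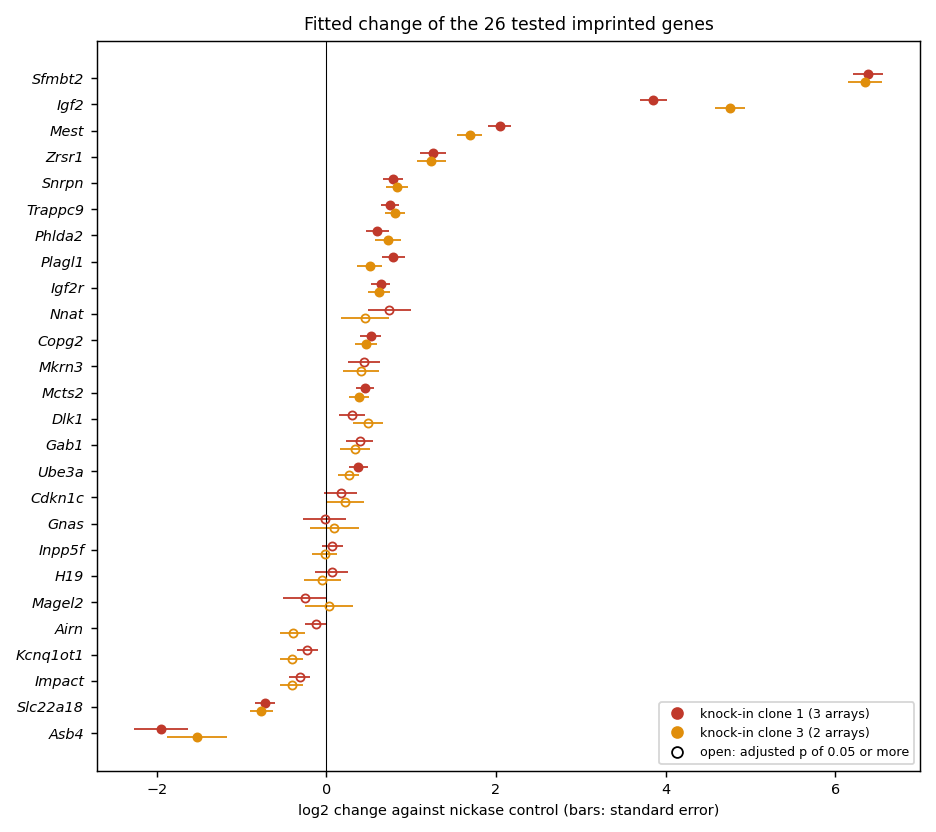
Fitted log2 change of the 26 tested imprinted genes in clone 1 and clone 3 against the control, with standard errors, ordered by the mean of both. Filled points had an adjusted p under 0.05. The fitted values of Igf2, Sfmbt2 and Asb4 rest on groups at background and give no fold.

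Of the 26 tested genes, 12 were called in neither clone. Beside H19, Airn, Kcnq1ot1, Cdkn1c, Magel2 and Mkrn3 these were Dlk1, Nnat, Impact, Gnas, Inpp5f and Gab1. Dlk1, a membrane protein related to Notch ligands, came to 0.30 ± 0.16 and 0.49 ± 0.17 log2 (SE, adjusted p 0.189 and 0.064). Nnat, for the membrane protein neuronatin, was above background on 5 arrays and came to 0.74 ± 0.25 and 0.45 ± 0.28 (SE, adjusted p 0.0576 and 0.274). Gnas, for the stimulatory G protein subunit, read between 5.92 and 6.81 in the clones and between 6.14 and 6.68 in the control, with overlap of the groups and changes of -0.02 ± 0.25 and 0.10 ± 0.28 (SE). Impact, a regulator of the translation kinase GCN2, was at -0.31 ± 0.12 and -0.41 ± 0.14 (SE, adjusted p 0.0894 and 0.0531). Inpp5f, a phosphoinositide phosphatase gene, and Gab1, for a docking protein of receptor kinases, also missed the threshold. These p-values do not show that the genes were equal between the groups.

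A further 12 genes were not tested. Among them 10 were above background on no array with any probe: Peg3, Usp29 and Zim1 of the Peg3 domain, Grb10, Meg3, Rtl1, Sgce, Ppp1r9a, Ndn and Nap1l5. Peg3 and Zim1 encode zinc finger proteins, Usp29 a deubiquitinase, Grb10 an adaptor that dampens insulin and IGF receptors, Meg3 a long noncoding RNA, and Rtl1 a retrotransposon-derived placental protein. At this sensitivity a low level could not be told from none. The filter lets a gene in where 1 group is above background throughout, so genes such as Igf2, Sfmbt2 and Asb4 passed only through the group in which their main probe was measured. Of the 21 genes above background on all 8 arrays, 9 were higher and 1 was lower in both clones, where 22.9% of all genes and transcripts with that property were called with one sign, and 26.6% of those with a symbol.

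Clone 3 set against clone 1 gave no call among the 26 genes by limma, where 0.0749% of all tested were called. At an unadjusted p under 0.05 there were 2, Igf2 and Mest, and no share over all tested was computed at that threshold. Igf2 was 0.91 ± 0.18 log2 higher in clone 3 (SE, adjusted p 0.154), and Mest was 0.35 ± 0.15 lower (SE, adjusted p 0.457).

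All control arrays lay in row 1 of the slide with 1 array of clone 1, and the other 4 knock-in arrays lay in row 2. With the array row as a block, 5 of the 13 genes kept their call in both clones, namely Igf2, Mest, Sfmbt2, Trappc9 and Slc22a18, where the share of all tested was 7.76% and that of genes with a symbol 9.48%. Igf2r, Copg2, Plagl1, Snrpn, Zrsr1 and Asb4 kept it in clone 1 alone, and Phlda2 and Mcts2 in neither. Of the 5 genes, Igf2 and Sfmbt2 had passed the filter only through the knock-in groups. Among the 21 genes above background on all 8 arrays, 2 were higher and 1 was lower in both clones with the block. No share over all such genes was computed with the block. The block moved 2 of the clone 3 values by over 1.5 times, that of Asb4 to -0.86, against -1.53 log2 without it, and that of Copg2 to 0.71, against 0.47. The block rests on the clone 1 array in row 1, which stood above the control mean by 0.72 log2 for Igf2r, 0.81 for Snrpn, 1.11 for Zrsr1, 0.45 for Phlda2 and 0.45 for Mcts2. On that array the brightest spike-in control read 2797, against 17164 to 30390 on the other arrays. What part this had in the block and row 1 results was not tested. No array of clone 3 was in row 1, so its values within a row cannot be given. Without the first array of clone 3, 8 genes were called in clone 3 and 7 in both clones, and the lost ones among the 13 were Igf2r, Mcts2, Phlda2, Asb4, Plagl1 and Copg2. Without the second array of clone 3, Mcts2, Plagl1 and Copg2 lost their call in clone 3. The call of Plagl1 in clone 3 was also lost without control replicate 2, control replicate 3 or clone 1 replicate 1, and that of Copg2 without control replicate 2 or control replicate 3. Mcts2 was lost in clone 3 when any array other than control replicate 3 was left out, and in both clones without the filter on dim probes.

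**Figure D4:**
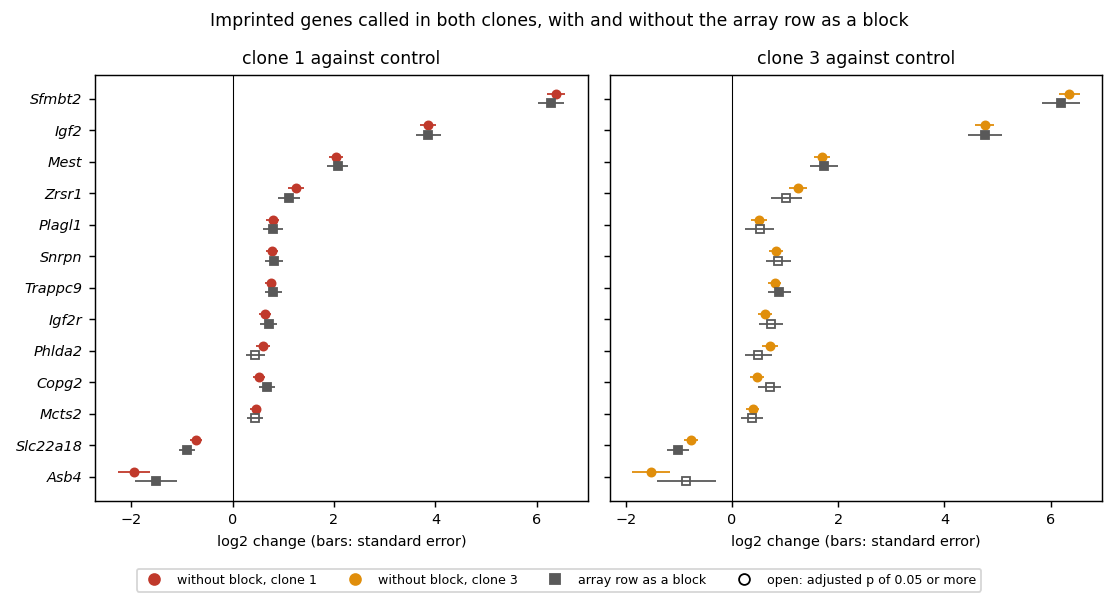
Log2 change of the 13 imprinted genes called in both clones, in clone 1 (left) and clone 3 (right) against the control, fitted without and with the array row as a block, with standard errors. Open points had an adjusted p of 0.05 or more. With the block 5 genes are called in both clones, and in clone 3 Asb4 is at -0.86, against -1.53 without it, and Copg2 at 0.71, against 0.47.

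Genes that lie beside the imprinted genes were described from a list of 80 neighbours with a probe, of which 50 were tested, 12 higher and 7 lower in both clones, beside 23.5% of all tested and 27.5% of genes with a symbol called with one sign. In the Peg10 and Sgce domain, Pon3, a paraoxonase gene, was lower by 3.74 ± 0.20 and 3.50 ± 0.22 log2 (SE). Pon3 was above background on 7 arrays, with means of -4.66 in clone 1 and -4.42 in clone 3 near the floor, so its size is approximate. Pdk4, a kinase gene that restrains pyruvate dehydrogenase, was higher by 1.96 ± 0.14 and 1.97 ± 0.15 (SE). Asb4 lies between these 2 genes, and Pon2 beside Pon3 was not called. Atp10a, a phospholipid flippase gene next to Ube3a, was lower by 1.69 ± 0.12 and 1.54 ± 0.14 (SE). Cobl, an actin nucleator gene beside Grb10, was higher by 1.26 ± 0.22 and 1.49 ± 0.24 (SE). Both directions therefore occurred inside one domain, also in the Kcnq1ot1 domain, where the neighbours Cd81 and Tnfrsf22 were higher while Slc22a18 was lower. These 2 genes fall outside the naming rule and were picked after their values were seen. With the array row as a block, 6 neighbours were higher and 2 were lower in both clones, beside 7.76% of all tested and 9.48% of genes with a symbol, and Cobl and Cd81 were then called in clone 1 alone.

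**Figure D5:**
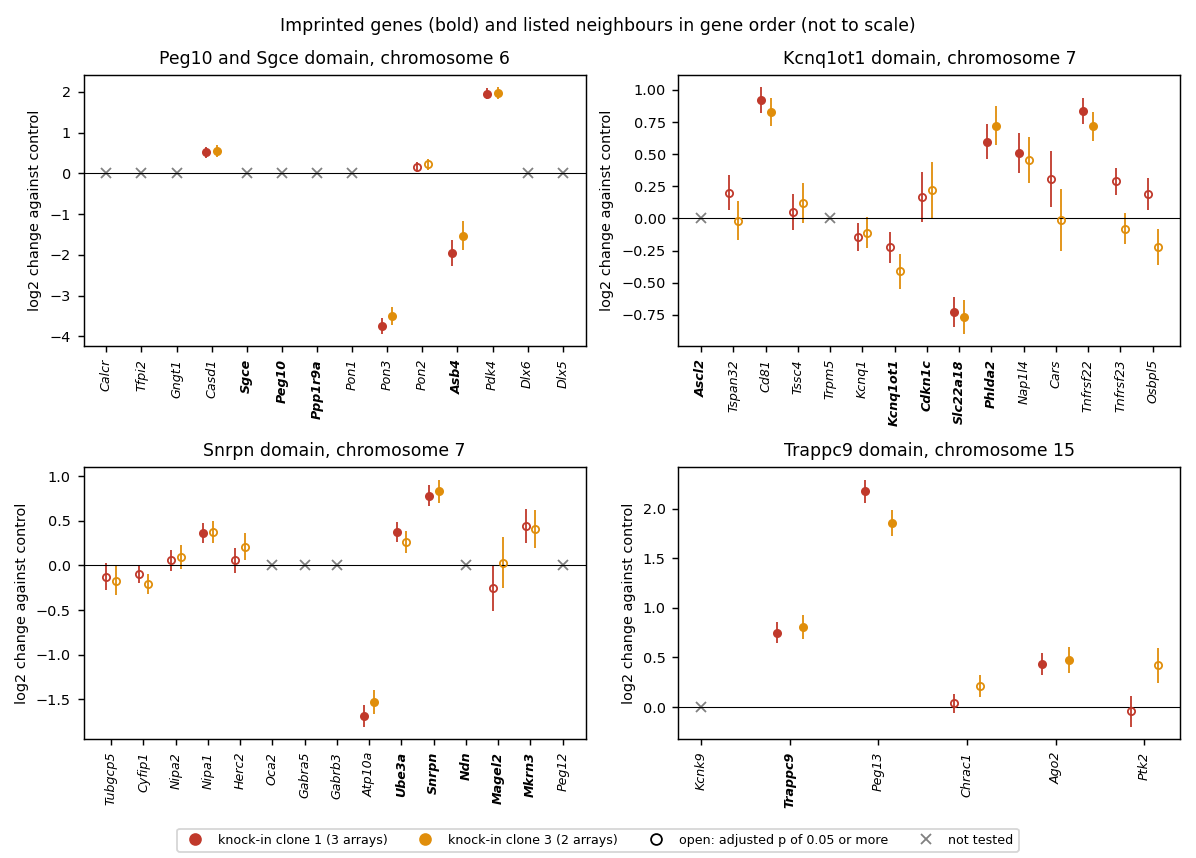
Log2 change against the control of imprinted genes (bold) and listed neighbours in gene order, not to scale, in 4 domains, with standard errors. Crosses mark genes that were not tested. In the Peg10 and Sgce domain Pon3 and Asb4 are lower and Pdk4 is higher in both clones.

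Of 30 genes that set or keep imprints, 28 were tested, 4 were higher and 1 was lower in both clones, beside 23.5% of all tested and 27.5% of genes with a symbol, and the medians were -0.15 and -0.01 log2. None changed by 1 log2 or more in both clones. The 4 were Dnmt3b, Zfp57, Tet2 and Yy1, the last 3 by 0.57 ± 0.15 and 0.62 ± 0.17, by 0.69 ± 0.11 and 0.59 ± 0.12, and by 0.56 ± 0.10 and 0.69 ± 0.11 log2 (SE). Hells, a chromatin remodeller needed for DNA methylation, was lower by 0.81 ± 0.12 and 0.59 ± 0.13 (SE), and Trim28, the partner of ZFP57, was not called. With the array row as a block, none of the 5 was called in both clones.

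Of 16 genes of IGF signalling other than Igf2, Igf2r and Grb10, 14 were tested, 6 were higher and 2 were lower in both clones, again beside 23.5% and 27.5%, and the medians were 0.04 and 0.10 log2. Irs1, the docking protein of the IGF1 and insulin receptors, read -1.04, -0.93 and -0.76 in clone 1, -0.95 and -0.84 in clone 3, and -3.88, -3.68 and -4.07 in the control. It was 7.83-fold higher in clone 1 and 7.90-fold higher in clone 3 (adjusted p 1.4e-06 and 3.55e-06). The IGF binding protein genes split, with Igfbp4 higher by 1.31 ± 0.14 and 1.12 ± 0.16 log2, Igfbp6 higher by 1.10 ± 0.12 and 1.20 ± 0.13, and Igfbp2 lower by 1.51 ± 0.36 and 1.47 ± 0.40 (SE). The receptor gene Igf1r was not called, at 0.05 ± 0.12 and 0.12 ± 0.14 (SE). With the array row as a block, 2 of the genes were higher and 1 was lower in both clones, beside the same 7.76% and 9.48%, and Igfbp4 was called in clone 1 alone.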

How the data were processed

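The authors deposited 1 scanner table per array. The processed signal is the linear intensity of a spot, from which background had been subtracted per the file headers. The software was Agilent Feature Extraction 11.5.11, according to the submitters' processing notes. Per the file headers, each spot also has flags for outliers and for signals well above background. Control and outlier spots were left out, signals were divided by the array's 75th percentile over probes and taken to log2, and spots of a probe were averaged. Probes were named through RefSeq accessions of GRCm38.p6, and a probe without one kept the name in the files. The deposited coordinates follow an older build and were not used.

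A gene was tested if all arrays of 1 or more groups had its brightest probe well above background. limma 3.58.1 in R 4.3.3 fitted the 3 groups together (lmFit, contrasts, eBayes with 5 residual and 3.38 prior degrees of freedom, two-sided, Benjamini-Hochberg over 25353 tested, threshold 0.05). The fit was tested on simulated data. All 56605 probes were also fitted singly where above background.

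Members, lists and tests were chosen with earlier results of these data known. The text names every member, gives values by array for members called in both clones, and names from each other list at most 6 genes called in both clones with a change of at least 1 log2, and further genes as hosts or for their role. The parental classes are textbook knowledge written after the values were seen. The fit of row 1 alone and the fit of single probes, with and without the row block, were also chosen after seeing the data, as were the hosts named.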

Additional observations from a re-analysis of the deposited data

How the results depend on the processing

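The direction of the 13 imprinted genes called in both clones held under every alternative run, except for Plagl1, whose change became -2.92 in clone 1 and -3.15 in clone 3 with the mean of all probes, because its 2 probes oppose each other. The number called in both clones was 5 with the array row as a block, also with every probe fitted as its own feature, 8 at an adjusted p under 0.01, 5 with a change of at least 1 log2 also required, and 7 to 12 when 1 array was left out. In clone 1, 5 genes met the threshold with 1 log2. In clone 3 the count was 5 with the row as a block, 5 with 1 log2, and 8 to 13 with 1 array left out. Over all genes and transcripts, the row block gave 4349 calls in clone 1, 2068 in clone 3 and 1967 in both. Row 1 alone, an alternative chosen after seeing the data, gave 3119 in clone 1. The stricter threshold gave 4714, 4325 and 3483, and 11 between the clones. With 1 log2 the counts were 2222, 2619 and 1828. Without a filter on dim probes 5103 were called in clone 3, 3938 in both and 7 between the clones. Between the clones the count was 46 with normexp background correction, 62 with a variance trend and robust estimation, and 9 to 172 with 1 array left out. It was 172 without the first and 61 without the second array of clone 3. Leaving out 1 array gave 5059 to 7444 in clone 3. Of the changes of single genes under alternatives, 867 kept direction and call, 77 lost the call, 24 gained one and 35 changed sign. Apart from Plagl1, the sign changes were of genes called in neither clone, as follows. In clone 1, H19 was -0.25 with the row block and in row 1 alone, -0.40 with the mean of probes, -0.052 with normexp, and -0.071 to 0.22 with 1 array left out. Airn was 0.055 and Magel2 0.21 with the row block and in row 1 alone, Magel2 -0.49 to 0.016 and Cdkn1c -0.069 to 0.35 with 1 array left out. Gnas was 0.016 with median scaling, 0.024 with normexp, 0.034 with quantile normalization and -0.20 to 0.25 with 1 array left out. In clone 3, H19 was 0.034 with median scaling, 0.038 with quantile normalization and -0.31 to 0.22 with 1 array left out. Inpp5f was 0.062 with median scaling, 0.093 with normexp and -0.16 to 0.12 with 1 array left out. Dlk1 was -0.095 and Gnas -0.11 with the mean of probes, Gnas -0.70 with the row block and -0.13 to 0.32 with 1 array left out, and Magel2 -0.13 to 0.17. The cause of these changes was not tested.

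Arrays are few, each knock-in group is 1 clone, and the 2 clones share their controls. With 1 array left out of clone 3, the lone array was assumed to vary like the other groups. Genes at background have no measured level, and for genes with several probes the brightest one decides the call. No paired analysis was possible because the replicate numbers were given in accession order and pair no arrays.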
